A study of Mus musculus with 6 samples.

Results

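Molecular chaperones and their regulators were compared in whole testis between 2 mouse strains after heat. The set held 52 listed genes of the HSP70, HSP90, small heat shock protein, DnaJ (HSP40) and CCT chaperonin families, with the heat shock factors and Bag3, taken from the array by gene name. A probe carrying the gene's name was found for 51 of the 52, each gene was represented by its brightest probe, and all 51 were among the 25276 genes tested. Hspa1b, an inducible HSP70 gene, had no probe under its own name, so its transcript was not measured here.

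B6.MRLc1 is the congenic strain B6.MRLc1-(D1Mit202–D1Mit403), which carries a stretch of chromosome 1 of the MRL strain, from 67.97 to 81.63 cM, on a C57BL/6 background. The other strain was C57BL/6 (B6), with the genotype given as wt. Testes came from 3 B6.MRLc1 and 3 B6 males, all 3 months old and kept free of specific pathogens, 10 days after the scrotum had been held once at 43 °C for 20 min. Both strains had the same heat exposure, and unheated testes were not analysed here, so every value is a strain difference after heat and none is a response to heat. The series title names the onset of heat-induced calcification within the testis, and the design asks which transcripts separate the strains at day 10.

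Chaperones hold unfolded proteins and help them fold. HSP70 proteins do so in cycles of ATP hydrolysis that J-domain proteins of the DnaJ family start and that exchange factors such as Bag3 and the HSP110 proteins reset, small heat shock proteins hold unfolding proteins without ATP, and the ring-shaped CCT complex folds actin and tubulin. Heat shock factor 1 switches on the inducible chaperones by binding heat shock elements, which are repeats of a short GAA unit in alternating orientation. Male germ cells in addition make chaperones of their own from separate genes, several of them only in meiotic cells or in spermatids, the haploid cells that become sperm.

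Levels are log2 processed signal relative to the 75th percentile of the array, and they compare arrays for 1 gene, not genes with each other. The 75th percentile ran from 556.8 to 604.7 intensity units on the B6.MRLc1 arrays and from 580.8 to 669.8 units on the B6 arrays, and no spot was saturated. Spots well above background made up 58.0% to 64.7% of a B6.MRLc1 array and 68.6% to 69.0% of a B6 array. The additive error in the file headers was larger on the B6.MRLc1 arrays, 3.38 to 5.68 units against 2.66 to 3.14 units on the B6 arrays. A dim probe may thus miss the background flag more easily on a B6.MRLc1 array. The arrays lay on 1 slide, B6.MRLc1 in row 2 and B6 in row 1, and the effect of the row cannot be told apart from that of the strain. Defining testis markers were present, with 10 of 10 Sertoli cell and 12 of 12 spermatocyte genes among the tested genes. Of the 51 chaperone genes, 47 were well above background on all 6 arrays, and Dnajb7 and Dnajb13 passed the filter on dim probes through the B6 arrays only.

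The genes that passed the test were chaperones of germ cells, and all of them were lower in B6.MRLc1 testes. Under limma with Benjamini-Hochberg adjustment over all 25276 genes, 3 of the 51 genes were lower in B6.MRLc1 testes and 0 were higher, where 2.22% of all tested genes were called lower and 0.404% higher. At an unadjusted p under 0.05 there were 15 of the 51, beside 20.3% of all genes. The 3 called genes, Dnajb3, Dnajb8 and Dnajb13, belong to the 10 germ cell chaperones. Dnajb3 and Dnajb8 were well above background on at least 2 arrays of each strain. Dnajb13 passed the filter through the B6 arrays alone, so its call sets B6 against background, and it was lost under normexp background correction. Among the 41 tested genes outside that group 0 were called in either direction (6 at an unadjusted p under 0.05), their median log2 fold change was 0.0048, and all 41 lay within 0.35 of 0. The median over all tested genes was 0.02. The role groups were chosen with earlier results of these data known, so the contrast between them is a description and not a test. Hsf2 and Hsp90aa1, which are also found in germ cells, were placed outside the germ cell group. The count of 3 did not survive the loss of an array: it ran from 0 to 2 when each array was left out in turn, being 0 without B6 replicate 1, B6 replicate 3 or B6.MRLc1 replicate 1, 1 (Dnajb13) without B6.MRLc1 replicate 2 or 3, and 2 (Cct6b and Hsf5) without B6 replicate 2.

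**Figure D1:**
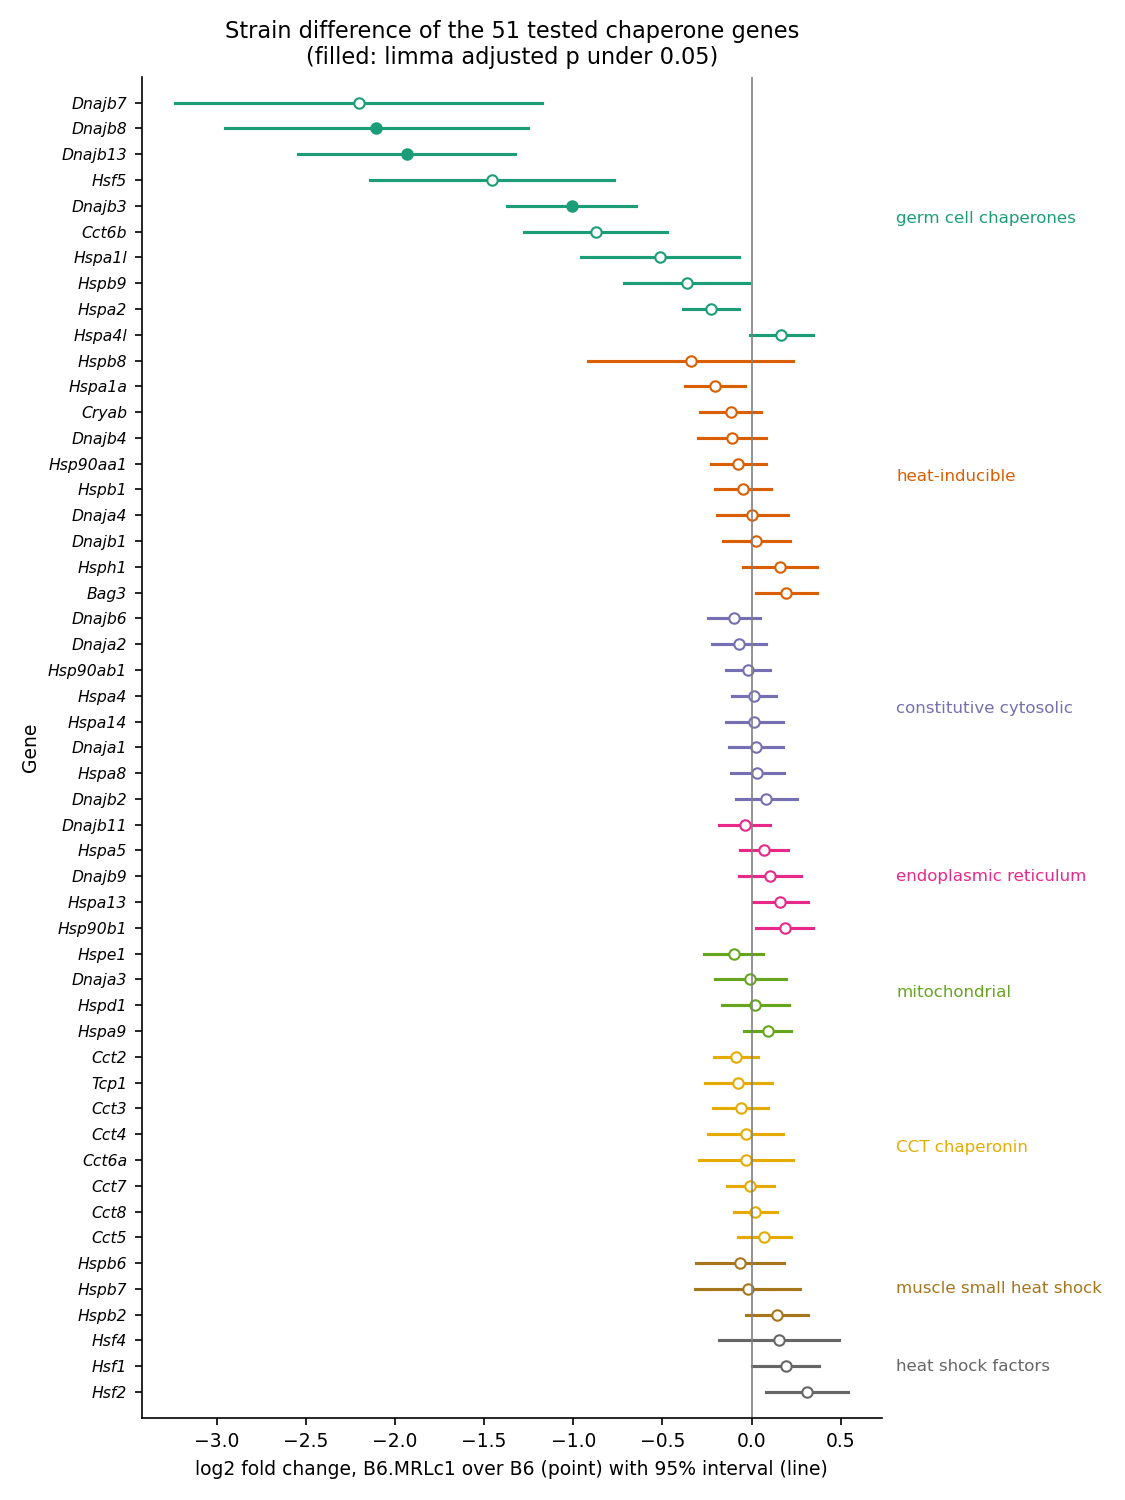
Log2 fold change of B6.MRLc1 over B6 for the 51 tested genes, grouped by role and sorted by change within each group; points are limma estimates, lines 95% intervals, and filled points have an adjusted p under 0.05. The 3 filled points are germ cell chaperones. Of these, Dnajb13 passed the filter on dim probes through the B6 arrays only, as did Dnajb7, which is not filled. All 41 genes of the other 7 groups lie within 0.35 of 0.

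Promoters and probes that bear on this contrast are shown first. The table of RefSeq promoters (GRCm38.p6) held an entry for 42 of the 52 genes, and the 250 bases before the start of each gene were searched on both strands for the two-unit heat shock element, GAANNTTC or TTCNNGAA, each of which reads the same on both strands. It was found for 6 of 9 heat-inducible genes (66.7%) and for 1 of 10 germ cell chaperones (10.0%), beside 3932 of 27025 genes in the whole table (14.5%). Among the other groups it was found for 2 of 3 mitochondrial genes (66.7%), 2 of 6 constitutive cytosolic genes (33.3%), 2 of 7 CCT genes (28.6%), 1 of 2 small heat shock genes of muscle, 0 of 4 genes of the endoplasmic reticulum and 0 of 1 heat shock factor. The 9 heat-inducible genes include Hspa1b, which has a match. A gene with several listed starts counted when any of them had a match. The longer three-unit element, GAANNTTCNNGAA or TTCNNGAANNTTC, which contains the shorter one, was found in 0 of 9 heat-inducible genes, 0 of 10 germ cell chaperones and 0.514% of all genes. The 3 genes of the set that had it were Hspd1, Hspe1 and Dnajb6. Hspd1 and Hspe1 have overlapping entries on opposite strands of chromosome 1. The same bases are thus counted for both genes, here and among the mitochondrial genes above. A match describes the letters only, and its absence says only that these letters are not in the window. The 5 upstream sequences below were chosen as inducible genes with a match (Hspa1a and Hspb1), the single germ cell gene with one (Hsf5) and the called germ cell genes Dnajb3 and Dnajb8, which had none. They run 5′ to 3′ along the gene's strand, with matches to the two-unit element in capitals. Hspa1a lies at chr17:34972157-34972406 on the minus strand, Hspb1 at chr5:135887669-135887918 on the plus strand, Hsf5 at chr11:87616914-87617163 on the plus strand, Dnajb3 at chr1:88205749-88205998 on the minus strand and Dnajb8 at chr6:88222018-88222267 on the plus strand.
Hspa1a: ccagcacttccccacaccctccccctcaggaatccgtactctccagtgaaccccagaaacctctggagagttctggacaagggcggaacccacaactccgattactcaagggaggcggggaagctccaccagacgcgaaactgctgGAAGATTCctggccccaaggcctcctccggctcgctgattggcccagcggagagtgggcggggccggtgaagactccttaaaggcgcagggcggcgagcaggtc
Hspb1: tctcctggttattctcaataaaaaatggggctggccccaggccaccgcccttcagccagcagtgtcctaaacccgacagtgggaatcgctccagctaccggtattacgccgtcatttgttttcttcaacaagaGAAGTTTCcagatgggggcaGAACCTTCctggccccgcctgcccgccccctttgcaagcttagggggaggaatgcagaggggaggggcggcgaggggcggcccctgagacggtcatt
Hsf5: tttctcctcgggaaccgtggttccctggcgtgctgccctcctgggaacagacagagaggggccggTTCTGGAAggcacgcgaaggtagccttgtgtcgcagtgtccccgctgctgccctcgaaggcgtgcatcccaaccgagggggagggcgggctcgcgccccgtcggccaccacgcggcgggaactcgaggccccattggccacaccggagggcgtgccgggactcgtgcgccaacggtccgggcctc
Dnajb3: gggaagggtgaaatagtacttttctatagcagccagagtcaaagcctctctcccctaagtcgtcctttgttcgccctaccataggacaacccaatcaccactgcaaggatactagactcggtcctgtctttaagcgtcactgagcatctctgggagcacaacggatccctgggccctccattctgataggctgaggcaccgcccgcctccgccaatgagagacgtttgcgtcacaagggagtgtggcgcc
Dnajb8: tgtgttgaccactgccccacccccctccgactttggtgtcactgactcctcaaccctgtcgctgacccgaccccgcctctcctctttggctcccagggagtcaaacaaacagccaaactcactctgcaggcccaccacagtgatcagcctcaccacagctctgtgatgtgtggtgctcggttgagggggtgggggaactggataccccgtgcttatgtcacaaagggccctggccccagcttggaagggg
The match of Hspa1a begins 104 bases before its start and that of Hsf5 185 bases before its start, and Hspb1 has 2 matches.

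Hspa1l and Hspa1a are neighbouring HSP70 genes of similar sequence, so their probes are printed to show how far they differ. Positions of probes are those of the array annotation in mm9, which places the Hspa1l probe at chr17:35115629-35115688 and the Hspa1a probe at chr17:35107117-35107176, and exons and untranslated regions of that build were not analysed here. Over 57 aligned bases the probes share 42 and differ at 15, and in those sequences capitals mark the differing bases. The probe of Dnajb13, at chr7:107654635-107654694, is shown as that of the called gene with the smallest adjusted p.
Hspa1l: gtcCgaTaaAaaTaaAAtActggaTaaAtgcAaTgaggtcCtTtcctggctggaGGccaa
Hspa1a: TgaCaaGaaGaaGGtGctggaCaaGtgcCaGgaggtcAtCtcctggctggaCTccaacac
Dnajb13: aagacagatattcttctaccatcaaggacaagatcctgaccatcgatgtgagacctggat
Across all 51 genes 0 pairs of probes of different genes shared a run of 20 bases. The Hspa1a probe was not checked against Hspa1b, a near-identical copy, so transcripts of these genes may both reach it.

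Germ cell chaperones were mostly lower in B6.MRLc1 testes by level, though few passed the test. Of the 8 that were well above background on at least 1 array of each strain, 2 were called lower, 7 were lower on every B6.MRLc1 array than on every B6 array, and 1 was higher on every array. Over all tested genes 2.22% were called lower. Arrays of the strains did not overlap for 13.8% of all tested genes with B6.MRLc1 lower and for 14.8% with B6.MRLc1 higher. The median log2 fold change of these 8 genes was -0.69, or -0.58 after normexp background correction with quantile normalization, a second way of treating dim signals. In whole testis, fewer cells of a type and less RNA per cell cannot be told apart.

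Dnajb3 encodes MSJ-1, a J-domain protein of mouse spermatids. Its level was -0.96, -0.97 and -0.71 in the 3 B6.MRLc1 testes, against 0.40, -0.07 and 0.05 in the 3 B6 testes. Every B6.MRLc1 array was below every B6 array, with B6.MRLc1 replicate 3 nearest to B6. The transcript was 2.01-fold lower in B6.MRLc1, a log2 fold change of -1.01 (SE 0.15, 95% interval -1.37 to -0.65, limma adjusted p = 0.0365). Normexp gave -0.90 with an adjusted p of 0.0165, and over the 17 alternatives that value ran from 0.0124 to 0.12. Leaving out any 1 of the 6 arrays ended the call, with adjusted p from 0.0589 to 0.108 and log2 fold changes from -1.11 to -0.87. Dnajb3 lies on chromosome 1, as do Dnajb2, Hspd1 and Hspe1, with its probe at chr1:90101307-90101366. The labels give the MRL segment in cM, and no map between cM and mm9 positions was used here.

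Dnajb8, a J-domain protein that restrains protein aggregation and is made mainly in testis, stood at -4.63, -4.73 and -4.06 in B6.MRLc1 testes, against -1.68, -2.63 and -2.80 in B6 testes. The strains did not overlap, and B6 replicate 1 stood above the other B6 arrays. Its log2 fold change was -2.10 (SE 0.34, 95% interval -2.95 to -1.26, limma adjusted p = 0.045), which is 4.30-fold lower in B6.MRLc1. The probe was well above background on 2 of the 3 B6.MRLc1 arrays. Normexp gave a log2 fold change of -1.0 (adjusted p = 0.042, with a range of 0.017 to 0.141 over the alternatives), and leaving out any 1 array gave adjusted p from 0.0597 to 0.132, all above the threshold of 0.05.

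Dnajb13 is a J-domain protein of the sperm flagellum, where it belongs to the radial spokes of the axoneme. It measured -6.46, -5.96 and -6.94 in B6.MRLc1 testes, against -4.39, -4.62 and -4.54 in B6 testes. None of the 3 B6.MRLc1 arrays had the probe well above background, so its level there is not a firm value. For each B6.MRLc1 array a floor was taken, the probe's signal or the dimmest signal well above background there, whichever was higher. The B6 mean was 1.34-fold above the mean of these floors. A probe above such a floor can still fail the background flag, so this is not a strict bound. The fitted log2 difference of -1.93 (SE 0.25) had a limma adjusted p of 0.0279. Normexp gave -0.24 and ended the call (adjusted p = 0.066, range over the alternatives 0.0196 to 0.34). The call held without B6.MRLc1 replicate 2 or 3 (adjusted p = 0.0418 and 0.0363) and was lost without B6.MRLc1 replicate 1 or any B6 array, at up to 0.10.

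Dnajb7, another member of the DnaJ B family, was also well above background on B6 arrays only. Its values were -6.53, -7.0 and -5.93 in B6.MRLc1 testes, none of them well above background, against -3.52, -4.80 and -4.53 in B6 testes. The B6 mean was 1.57-fold above floors taken in the same way. The fitted log2 difference of -2.20 did not pass the test (limma adjusted p = 0.0601), and normexp gave -0.49 (adjusted p = 0.0756).

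Hsf5 and Cct6b came close to the threshold. Hsf5, a testis member of the heat shock factor family needed for meiosis in mouse spermatocytes, was at -3.06, -2.58 and -2.53 in B6.MRLc1 testes, against -1.02, -1.83 and -0.95 in B6 testes. No arrays overlapped, and B6 replicate 2 was the lowest of its strain. The log2 fold change was -1.46 (SE 0.28, limma adjusted p = 0.0605). Cct6b, the testis form of the zeta subunit of CCT, was at -1.10, -0.99 and -0.88 in B6.MRLc1 testes, against 0.07, -0.47 and 0.05 in B6 testes, with B6 replicate 2 again the lowest B6 array. Its log2 fold change was -0.87 (SE 0.16, limma adjusted p = 0.0576). Both passed the threshold under normexp, Hsf5 at -0.98 (adjusted p = 0.0325) and Cct6b at -0.80 (adjusted p = 0.0339), and both passed without B6 replicate 2 (0.047 and 0.0343). Over all alternatives the adjusted p ran from 0.025 to 0.173 for Hsf5 and from 0.0239 to 0.157 for Cct6b. Under normexp 4 of the 51 genes were called lower, Dnajb3, Dnajb8, Cct6b and Hsf5, where 3.06% of all genes were.

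The HSP70 family members of germ cells did not pass the test. Hspa2, the HSP70 that spermatocytes need to complete meiosis, was at 2.21, 2.24 and 2.24 in B6.MRLc1 testes, against 2.50, 2.36 and 2.52 in B6 testes. The strains did not overlap, yet the log2 fold change was only -0.23 (SE 0.06, 95% interval -0.39 to -0.07) and the test did not pass (limma adjusted p = 0.13). Hspa1l, an HSP70 of spermatids, was at -3.52, -3.28 and -3.32 in B6.MRLc1 testes, against -2.50, -2.92 and -3.16 in B6 testes. It did not overlap either and did not pass, with a log2 fold change of -0.51 (SE 0.18, adjusted p = 0.194).

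Hspa4l, an HSP110-type exchange factor abundant in testis, was the single germ cell chaperone with the higher level in B6.MRLc1. It stood at 2.57, 2.68 and 2.63 there, against 2.37, 2.43 and 2.57 in B6, so that the nearest arrays of the strains were level to 2 decimals. The log2 fold change of 0.17 (SE 0.07) did not pass the test (limma adjusted p = 0.267). Hspb9, a small heat shock protein of testis, was at 0.83, 1.26 and 1.15 in B6.MRLc1 testes, against 1.63, 1.37 and 1.34 in B6 testes. Its arrays did not overlap and its log2 fold change was -0.36 (SE 0.14, adjusted p = 0.232).

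**Figure D2:**
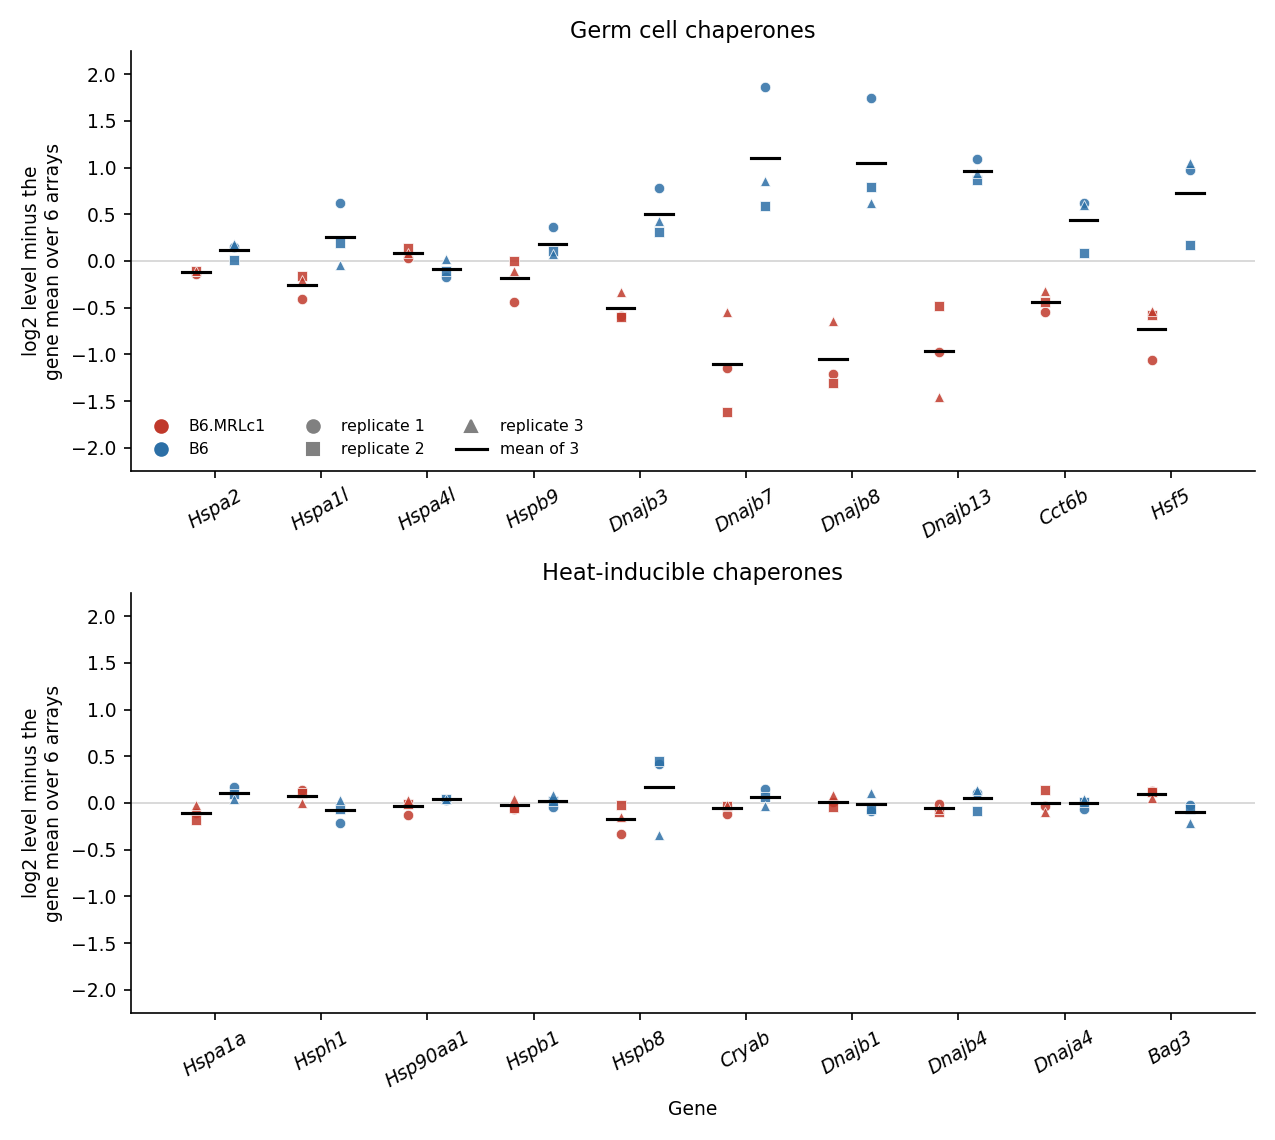
Log2 level of each gene minus its mean over the 6 arrays for the 10 germ cell chaperones (upper panel) and the 10 tested heat-inducible chaperones (lower panel), on the same scale, with B6.MRLc1 left of B6 for each gene; symbols are arrays and bars are means of 3. In the upper panel Dnajb3, Dnajb8 and Dnajb13 passed the test. The B6.MRLc1 points of Dnajb13 and Dnajb7 are background values, so their differences set B6 against background. In the lower panel the widest difference is that of Hspb8, whose B6 replicate 3 lies below all its B6.MRLc1 arrays.

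As a description, the 5 genes whose values over the 6 arrays followed those of Hspa2 most closely were Cct6b (Pearson r = 0.994), Hsf5 (r = 0.990), Dnajb3 (r = 0.936), Dnajb7 (r = 0.904) and Dnajb13 (r = 0.889). For Dnajb7 and Dnajb13 the 3 B6.MRLc1 points are background values. The next genes in the order were Dnajb8 (r = 0.885) and Cct2 (r = 0.880), a CCT subunit of all cells. The 6 points share the strain split, and no test is given.

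The heat-inducible genes gave 0 calls among 10 tested (2 at an unadjusted p under 0.05), beside 2.63% of all genes called in either direction. Their median log2 fold change was -0.06, with 6 below 0 and 4 above. Hspa1a, the main inducible HSP70, was at -0.70, -0.77 and -0.61 in B6.MRLc1 testes, against -0.42, -0.49 and -0.55 in B6 testes. It was the inducible gene that did not overlap with B6.MRLc1 lower, by a log2 fold change of -0.21 (SE 0.07, 95% interval -0.37 to -0.04, limma adjusted p = 0.176). Bag3, the exchange factor that joins HSP70 to small heat shock proteins, was at 2.42, 2.41 and 2.35 in B6.MRLc1 testes, against 2.28, 2.23 and 2.09 in B6 testes. It was the inducible gene that did not overlap with B6.MRLc1 higher, by 0.19 (SE 0.07, adjusted p = 0.202).

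For the other inducible genes the arrays of the strains overlapped. Hsph1, an inducible HSP110 exchange factor, was at 1.96, 1.92 and 1.82 in B6.MRLc1 testes, against 1.61, 1.76 and 1.86 in B6 testes, with a log2 fold change of 0.16 (adjusted p = 0.356). Hsp90aa1, the inducible HSP90, which is also abundant in germ cells, was at 4.41, 4.53 and 4.58 in B6.MRLc1, against 4.57, 4.59 and 4.59 in B6, a difference of -0.07 (95% interval -0.23 to 0.08). Hspb1, the small heat shock protein HSP25 of the mouse, was at 6.61, 6.62 and 6.71 in B6.MRLc1, against 6.63, 6.70 and 6.76 in B6, a difference of -0.05 (95% interval -0.20 to 0.11). The intervals of these last 2 genes leave room for a small difference either way.

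Hspb8, the small heat shock protein that works with Bag3, was at 0.62, 0.93 and 0.80 in B6.MRLc1 testes, against 1.37, 1.40 and 0.61 in B6 testes. The B6 arrays themselves were spread widely, and the log2 fold change of -0.34 (SE 0.23, adjusted p = 0.456) was the largest in size outside the germ cell group. Without B6 replicate 3 it was -0.60, still not called. Cryab, alpha B crystallin, was at 1.22, 1.30 and 1.32 in B6.MRLc1, against 1.49, 1.41 and 1.30 in B6, a difference of -0.12 (adjusted p = 0.398).

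The inducible DnaJ proteins differed little. Dnajb1, the main J-domain partner of inducible HSP70, was at 4.41, 4.35 and 4.48 in B6.MRLc1 testes, against 4.32, 4.34 and 4.51 in B6 testes, a difference of 0.03 (95% interval -0.16 to 0.21, limma adjusted p = 0.873). Dnajb4, a close relative of Dnajb1, was at -1.13, -1.21 and -1.19 in B6.MRLc1, against -1.01, -1.20 and -0.98 in B6, a difference of -0.11 (adjusted p = 0.464). Dnaja4 was at 1.12, 1.29 and 1.06 in B6.MRLc1, against 1.09, 1.17 and 1.20 in B6, with an adjusted p of 0.979. For Dnaja4, Dnaja2, Dnajb2, Dnajb9 and Hspa8 different probes of the gene gave differences of opposite sign.

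The constitutive chaperones of the cytosol, those of the endoplasmic reticulum and mitochondria and the CCT subunits held 0 calls. Of all tested genes 2.63% were called in either direction. At an unadjusted p under 0.05 there were 2 genes, both of the endoplasmic reticulum, beside 20.3% of all genes. The 8 constitutive cytosolic genes lay between -0.10 and 0.08 on the log2 scale (median 0.01), and the arrays of the strains overlapped for each of them. Dnajb6, which restrains aggregation of polyglutamine proteins, had the largest difference of that group, with 2.42, 2.33 and 2.34 in B6.MRLc1 testes, against 2.47, 2.41 and 2.52 in B6 testes (log2 fold change -0.10, adjusted p = 0.399). Hspa8, the constitutive HSP70, was at 7.10, 7.06 and 7.14 in B6.MRLc1, against 7.11, 6.99 and 7.11 in B6, a difference of 0.03 (95% interval -0.12 to 0.18). Hspa4, an HSP110-type exchange factor of all cells, was at 4.74, 4.76 and 4.81 in B6.MRLc1, against 4.77, 4.75 and 4.75 in B6, a difference of 0.01 (95% interval -0.11 to 0.14).

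The 5 genes of the endoplasmic reticulum lay between -0.04 and 0.19, with a median of 0.10. Hsp90b1, the HSP90 of this compartment known as GRP94, was at 5.75, 5.78 and 5.76 in B6.MRLc1 testes, against 5.48, 5.60 and 5.66 in B6 testes. It did not overlap, and its log2 fold change of 0.19 (SE 0.06, 95% interval 0.03 to 0.34) did not pass the test (limma adjusted p = 0.194). The 4 mitochondrial genes, Hspd1, Hspe1, Hspa9 and Dnaja3, lay between -0.10 and 0.09. Hspe1, the co-chaperonin HSP10, had the largest difference in size among them, with 4.73, 4.79 and 4.82 in B6.MRLc1, against 4.97, 4.79 and 4.86 in B6 (adjusted p = 0.45).

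The 8 general CCT subunits, Tcp1 included, lay between -0.09 and 0.07, with 6 below 0 and a median of -0.03. Cct2 was at 4.61, 4.64 and 4.68 in B6.MRLc1 testes, against 4.74, 4.73 and 4.73 in B6 testes. It was the CCT subunit whose arrays did not overlap, by a log2 fold change of -0.09 (SE 0.05, limma adjusted p = 0.378). Cct6a, the zeta subunit of all cells and the relative of Cct6b, was at 0.71, 0.73 and 0.59 in B6.MRLc1, against 0.84, 0.78 and 0.50 in B6, a difference of -0.03 (95% interval -0.29 to 0.23).

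Hspb2, Hspb6 and Hspb7, small heat shock proteins known mainly from muscle, lay between -0.07 and 0.14. Hspb2 had the largest difference, with 0.17, 0.10 and 0.17 in B6.MRLc1 testes, against -0.07, -0.04 and 0.12 in B6 testes (adjusted p = 0.323). The linear signal summed over 5 tested striated muscle markers, of 8 listed, was 4.59 to 4.78 times the array's 75th percentile in B6.MRLc1 and 3.72 to 4.48 times in B6. Ckm, Myh4 and Mylpf did not pass the filter on dim probes, and the part of muscle in these values was not tested.

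The heat shock factors outside the germ cell group all had positive differences, and 0 of 3 passed the test (2 at an unadjusted p under 0.05). Over all tested genes 2.63% were called in either direction, and 20.3% had an unadjusted p under 0.05. Hsf2, a factor active in development and in germ cells, was at -0.25, -0.10 and -0.42 in B6.MRLc1 testes, against -0.61, -0.58 and -0.52 in B6 testes. The strains did not overlap, with a log2 fold change of 0.31 (SE 0.09, 95% interval 0.08 to 0.54, limma adjusted p = 0.149). Hsf1, the factor that drives the heat shock response, was at 1.67, 1.56 and 1.76 in B6.MRLc1, against 1.40, 1.46 and 1.56 in B6. Its lowest B6.MRLc1 array stood just above its highest B6 array, with a log2 fold change of 0.19 (SE 0.08, adjusted p = 0.238). Hsf4, a factor of the lens, was dim, with a difference of 0.15 (adjusted p = 0.559), and was well above background on 2 of 3 B6.MRLc1 arrays.

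Germ cell forms were then set against their relatives within each array, where the scaling of the array cancels, and the strains' differences in that log2 ratio were compared. Of 8 pairs planned, 7 could be measured, since Hspa1b had no probe. An exact two-sided permutation test over 3 against 3 arrays cannot give a p below 0.10, so no pair could pass. As B6.MRLc1 minus B6, the log2 ratio of Hsf5 to Hsf1 differed by -1.65, that of Dnajb8 to Dnajb6 differed by -2.0, that of Dnajb3 to Dnajb6 by -0.91 and that of Cct6b to Cct6a by -0.84. The pair of Hspa2 and Hspa8 differed by -0.26, and that of Hspa4l and Hspa4 by 0.15. For these 6 pairs, at the scaling used throughout, the arrays of the strains did not overlap, which is the smallest exact permutation p of 0.10 (0.117 adjusted over the 7 pairs). The ratio of Hspa1l to Hspa1a differed by -0.31 and overlapped (exact permutation p = 0.20). The difference for Dnajb8 and Dnajb6 was -0.86 under normexp. The pair of Hspa4l and Hspa4 overlapped under normexp (0.0713, exact permutation p = 0.50), quantile normalization (0.13, exact permutation p = 0.30) and the mean over probes (0.12, exact permutation p = 0.30). Dnajb6 serves in 2 pairs, so these are not independent. In each of the 7 pairs the germ cell gene alone did not overlap between the strains, so the ratios in part repeat those levels. Single genes did not overlap in 13.8% (B6.MRLc1 lower) and 14.8% (higher) of all tested genes, and no such share was computed for ratios.

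**Figure D3:**
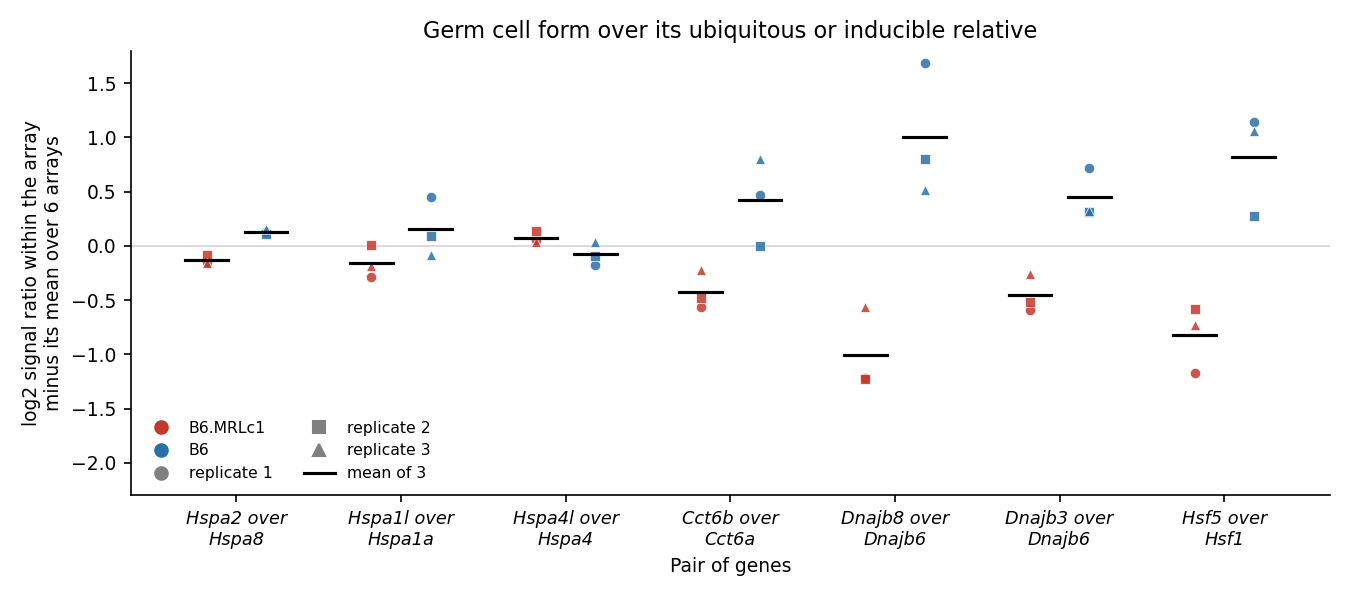
Log2 ratio of a germ cell gene to its ubiquitous or inducible relative within each array, minus the mean of that ratio over the 6 arrays, for 7 pairs, with B6.MRLc1 left of B6; symbols are arrays and bars are means of 3. For 5 pairs all B6.MRLc1 ratios lie below all B6 ratios, for Hspa4l over Hspa4 they lie above, and for Hspa1l over Hspa1a they overlap.

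Chaperones outside the 52 genes were read in the same fit. Of 72 tested genes among 75 other chaperones and cochaperones, 0 were called (10 at an unadjusted p under 0.05), beside 2.63% of all tested genes called and 20.3% at that unadjusted p. The median log2 fold change was 0.03 and the range -0.19 to 0.33. Of 7 other chaperones known from testis, 1 was called lower and 0 higher (5 at an unadjusted p under 0.05), where 2.22% of all genes were called lower and 0.404% higher, with a median of -1.26, or -0.39 under normexp. The called gene was Clgn, which encodes calmegin, a chaperone of the endoplasmic reticulum in spermatogenic cells that sperm surface proteins depend on. Clgn was at -1.71, -1.30 and -1.23 in B6.MRLc1 testes, against -0.00, -0.52 and 0.07 in B6 testes. The strains did not overlap, and the log2 fold change was -1.26 (SE 0.20, limma adjusted p = 0.0447), a 2.39-fold lower level in B6.MRLc1. Leaving out any 1 array ended this call too, with adjusted p from 0.0549 to 0.136.

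The other testis chaperones did not pass the test. Pdilt, a testis disulfide isomerase relative that partners calmegin, had a log2 fold change of -2.61 (limma adjusted p = 0.0964). Dnajc5b and Dnajc5g, testis relatives of the cysteine string protein, had -2.95 (adjusted p = 0.0831) and -1.09 (adjusted p = 0.114). Odf1, a small heat shock relative of the sperm outer dense fibres, had -1.69 (adjusted p = 0.217). These 4 were well above background on 1 of 3 B6.MRLc1 arrays each, so their sizes rest on dim values. Calr3, the calreticulin of testis, had -0.22 (adjusted p = 0.382) and Fkbp6, an immunophilin of meiotic cells, 0.0017 (adjusted p = 0.994).

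Markers of spermatids were lower on the same arrays as the germ cell chaperones. The linear signal summed over 12 of 12 elongating spermatid markers was 4.77 to 9.90 times the 75th percentile in B6.MRLc1 testes and 19.1 to 50.5 times in B6 testes. All 12 were lower on every B6.MRLc1 array than on every B6 array, as were 13.8% of all tested genes, and 2, Odf2 and Cylc2, were called lower, as were 2.22% of all tested genes. Cylc2 was not well above background on the 3 B6.MRLc1 arrays. Over 9 tested round spermatid markers of 12 listed the sum was 1.92 to 2.16 in B6.MRLc1 and 3.21 to 4.19 in B6, with 2 called lower and Catsper3, Tex21 and Izumo1 not passing the filter. Over 12 spermatocyte markers it was 19.9 to 24.6 in B6.MRLc1 and 22.2 to 26.4 in B6, with 0 called and 4 at an unadjusted p under 0.05, and over 10 spermatogonial markers it was 32.2 to 34.5 in B6.MRLc1 and 30.5 to 32.4 in B6. Lower on every B6.MRLc1 array than on every B6 array were 6 of the 9 round spermatid and 4 of the 12 spermatocyte markers. In these 2 lists 0 were higher on every array. Odf1 is in the elongating spermatid list as well as among the other testis chaperones. The part of these cell types in the chaperone differences was not tested.

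By array, the median deviation from their own means of the 8 germ cell chaperones measured in both strains was -0.49, -0.30 and -0.26 in B6.MRLc1 testes, against 0.62, 0.14 and 0.30 in B6 testes. The elongating spermatid markers stood at -1.25, -1.66 and -0.27 in B6.MRLc1, against 1.64, 0.82 and 0.47 in B6, and the round spermatid markers at -0.51, -0.09 and -0.29 in B6.MRLc1, against 0.91, 0.30 and 0.40 in B6. The spermatocyte markers stood at -0.16, 0.0028 and 0.02 in B6.MRLc1, against 0.07, 0.01 and 0.16 in B6, and these medians overlapped. Markers of some other cells had higher sums in B6.MRLc1, though 0 of 5 adipocyte and 0 of 10 Sertoli cell markers were called (4 and 2 at an unadjusted p under 0.05). Among all tested genes 2.63% were called and 20.3% had such an unadjusted p. The summed signal of 5 tested adipocyte markers, a sign of attached fat, was 6.47 to 13.3 in B6.MRLc1 and 3.54 to 5.88 in B6 (Lep did not pass the filter), and that of 10 Sertoli cell markers was 646 to 677 in B6.MRLc1 and 575 to 658 in B6, ranges that overlap. All 10 Sertoli cell and all 5 adipocyte markers had positive log2 fold changes. Of these, 5 Sertoli cell and 3 adipocyte markers were higher on every B6.MRLc1 array than on every B6 array. The same held for 14.8% of all tested genes. The part of fat and Sertoli cells in the chaperone values was not tested.

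**Figure D4:**
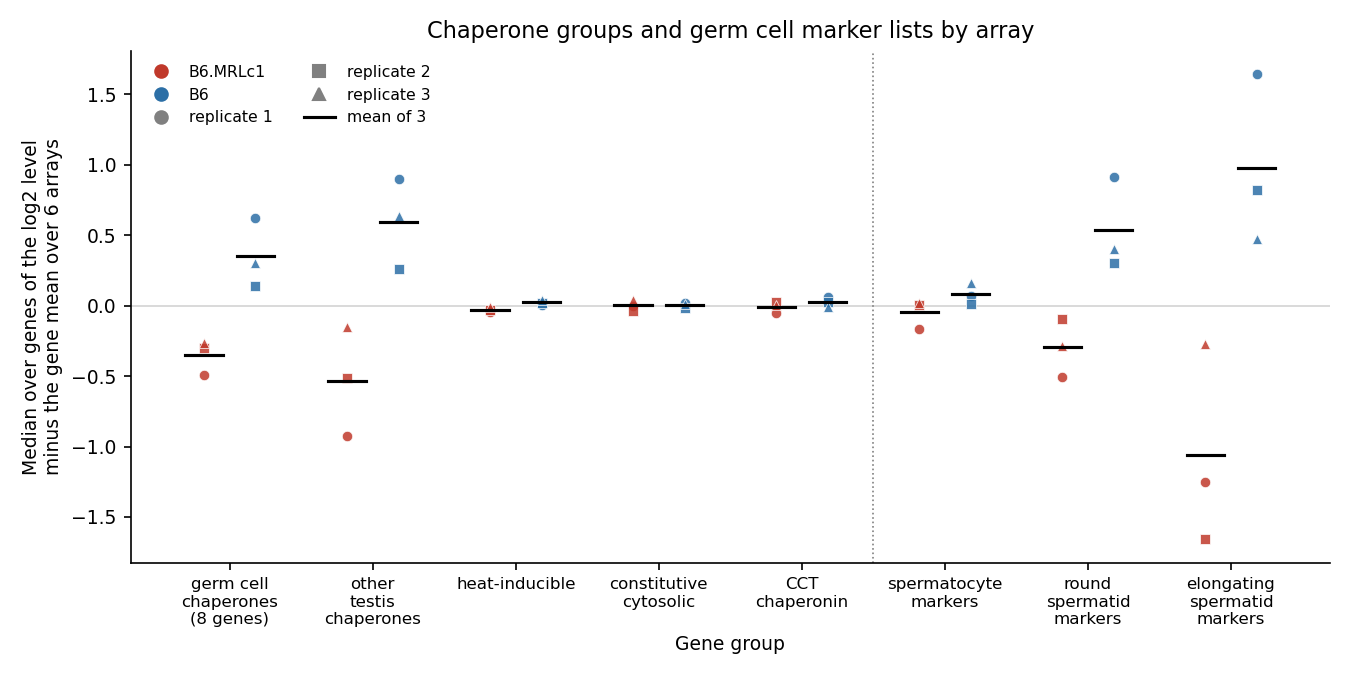
Median over the genes of a group of the log2 level minus the gene's mean over the 6 arrays, for 5 chaperone groups (left of the dotted line) and 3 germ cell marker lists (right of it), with B6.MRLc1 left of B6; symbols are arrays and bars are means of 3. The 8 germ cell chaperones measured in both strains lie between -0.49 and -0.26 in B6.MRLc1 and between 0.14 and 0.62 in B6. Spermatid markers are split in the same way. Inducible, constitutive and CCT groups stay near 0, and the last 2 overlap. The inducible group is split by less, at -0.05 to -0.01 in B6.MRLc1 and 0.0038 to 0.04 in B6. The heat shock factors, not drawn, were split the other way, at 0.10 to 0.25 in B6.MRLc1 and -0.17 to -0.09 in B6.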

How the data were processed

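Total RNA of 6 testes was labelled with Cy3 and hybridised to one-colour Agilent arrays, per the labels' protocols. The deposited scanner files give intensity on a linear scale that, per the file headers, the authors' scanner software had background-subtracted and detrended but not scaled between arrays, with flags of 0 or 1 for spots above background, saturated or outlying. The headers name Feature Extraction 10.7.3.1 and the submitters' processing notes version 9.5.3. A deposited table of log2 values for the whole series served as an alternative. Each array's scale, centring and direction in that table were checked against the scanner signals: its log2 values matched the scaled signal after subtraction of each probe's median.

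Here the signals of an array were scaled to the 75th percentile of its non-control spots before log2 was taken. Outlier spots were left out, and spots of a probe were averaged. A probe needed values on at least 4 arrays and to be well above background on at least 3. This kept 36627 of 55681 probes and 25276 genes, each by its brightest probe, named by accession and symbol through RefSeq tables (GRCm38.p6) and otherwise as in the file. Strains were compared with limma 3.58.1 (lmFit and eBayes, R 4.3.3) with Benjamini-Hochberg adjustment over all genes, calling at an adjusted p under 0.05. The same steps were run on simulated data, with 100 of 25271 genes changed. They recovered 77 at a log2 change of 1 and 81 at a log2 change of 2, with 11 false calls each time. In these runs the share of false calls was thus larger than an adjusted p under 0.05 aims for. The 17 alternatives covered background correction (normexp, offset 50), scaling, filters, probe choice, variance model, a block on replicate number and each array left out. Each array is taken as 1 mouse, as the design text counts 3 per strain. The precision is limited by 3 arrays per strain. The genes, role groups and lists were chosen with earlier results of these data known.

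Per-array values are given for every called gene, every germ cell and heat-inducible gene, the largest difference of each other role group and both genes of each pair, and other genes are given by range and count. Called genes of the other chaperone lists are also named, and the remaining testis chaperones were added after their values were seen. Replicate numbers, which equal slide columns, correlated across strains in their deviations at -0.04, 0.17 and 0.09 and were not taken as pairs.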

Additional observations from a re-analysis of the deposited data

How the results depend on the processing

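No alternative reversed a called gene. Of 616 gene and setting pairs over 37 named genes, 547 kept direction and call, 35 lost the call, 13 gained it and 21 changed sign, in genes near 0. Most of the 547 are genes that were not called in any setting, and all 35 losses fell on the called genes. Dnajb3 kept its call in 9 settings and lost it in 8, and Dnajb8 kept it in 6 and lost it in 10. Dnajb13 kept its call in 7 and lost it in 8, and Clgn kept it in 8 and lost it in 9. The 3 lower calls among the chaperones became 1 with the deposited values, 1 with probes well above background on all 6 arrays, 1 with dim values raised to a floor, 0 with no filter, 6 with a variance trend and 0 with the replicate block, and 0 to 2 with an array left out. For the other chaperones the 1 lower call became 2 with normexp, 0 with quantile normalization, 0 with no filter, 2 with array weights, 3 with a variance trend and 0 with the block, and 0 to 1 with an array left out. Over all genes the 562 lower calls became 349 with the deposited values, 38 with no filter, 372 with the floor, 1137 with array weights, 874 with the variance trend and 0 with the block, and 42 to 400 with an array left out. The 102 higher calls became 239 with normexp, 12 with no filter, 328 with the variance trend, 507 with array weights and 0 with the block, and 7 to 86 with an array left out. Replicate numbers were not taken as pairs. Their deviations correlated across strains at -0.04, 0.17 and 0.09 for like numbers and from -0.16 to 0.07 for unlike numbers. These values do not show that the slide columns had no effect. The germ cell median of -0.94 over 10 genes, 2 of them well above background in B6 only, became -0.43 with normexp, -0.70 with the deposited values, -0.51 on all 6 arrays and -0.58 with the floor, the first and last of which draw dim values together. The heat shock factor median of 0.19 became 0.30 with the deposited values, and the heat-inducible median of -0.06 became -0.0369 with array weights; the cause was not tested. With an array left out, medians ran from -0.0448 to -0.0016 over all 51 genes, -1.08 to -0.83 in the germ cell group, -0.0934 to -0.0276 in the heat-inducible group, -0.077 to 0.0051 in the CCT group, -0.0473 to 0.0502 in the muscle group and 0.15 to 0.30 in the heat shock factors. Signs changed for Dnaja4 with the deposited values (-0.00064), quantile normalization (-0.0076), the mean over probes (-0.0353) and array weights (-0.015), for Hspa8 with the mean over probes (-0.0286), and for Fkbp6 with normexp (-0.0313), the deposited values (-0.0038) and quantile normalization (-0.0231). With an array left out the differences ran from -0.0099 to 0.087 for Dnajb1, -0.0633 to 0.0555 for Dnaja4, -0.0085 to 0.0534 for Hspa8, -0.0084 to 0.0282 for Hspa4, -0.134 to 0.0379 for Cct6a and -0.0513 to 0.0694 for Fkbp6. Dim spots limit all of this: B6.MRLc1 arrays had fewer of them above background.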
